A study of Mus musculus with 9 samples.

Results

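Partly methylated 1 kb tiles that lie directly beside an unmethylated, CpG-dense tile were described in 9 reduced representation bisulfite sequencing (RRBS) libraries of Abl.1 cells. A tile belonged to the set when it lay on chromosomes 1 to 19, held 10 or more reads at CpGs in each of the 9 libraries and fewer than 20 distinct CpG positions, and had a level of 20% to 80% in the pooled DMSO libraries. Its neighbour had to hold 40 or more CpG positions at a pooled DMSO level under 5%. The rule found 217 of the 66788 tiles with enough reads, of which 64685 lay on chromosomes 1 to 19 and 43804 of those held fewer than 20 CpGs. Abl.1 is 1 clone of immortalised B cells. Its strain is given as 129S1/SvImJ x CAST/EiJ F1 and its sex as female. All groups share this clone, and both parental alleles were read together. The control medium held 1% DMSO (2 libraries). The drug 5-aza-2'-deoxycytidine (5-aza-dC) was dissolved in DMSO and given in a low dose of 0.2 µM (2 libraries), a middle dose of 2 µM (3 libraries) or a high dose of 10 µM (2 libraries). All cells were collected on day 2, after dead cells had been removed by density centrifugation. The labels call the replicates library preparations and do not say whether they came from separate cultures, so the p-values measure the spread between libraries, which may be technical.

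CpG islands are stretches rich in CpG, often at gene starts, that stay unmethylated in most cells. Their flanks, called shores, hold fewer CpGs and form the passage to the methylated bulk of the genome, and they often differ in methylation between cell types and tumours. The methyltransferase DNMT1 copies methylation onto new strands at replication, and 5-aza-dC, once built into DNA, traps the enzyme, so that methylation is diluted as cells divide.

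The contrast in sequence that the rule is built on is visible in the 250 bases before RefSeq gene starts (GRCm38.p6, the assembly behind mm10), printed 5′ to 3′ with each CG in capitals. The first 4 windows lie inside member tiles, the other 3 in the dense tiles beside members. They were chosen after their values were seen, the first 4 as all such windows with 10 or more reads in every library.
Pkn3, chr2:30078448-30078697, plus strand: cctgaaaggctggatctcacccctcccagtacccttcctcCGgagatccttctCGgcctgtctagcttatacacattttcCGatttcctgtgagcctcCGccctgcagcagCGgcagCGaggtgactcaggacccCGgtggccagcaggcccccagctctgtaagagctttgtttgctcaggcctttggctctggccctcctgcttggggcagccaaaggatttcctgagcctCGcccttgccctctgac
Gm11772, chr11:120238037-120238286, minus strand: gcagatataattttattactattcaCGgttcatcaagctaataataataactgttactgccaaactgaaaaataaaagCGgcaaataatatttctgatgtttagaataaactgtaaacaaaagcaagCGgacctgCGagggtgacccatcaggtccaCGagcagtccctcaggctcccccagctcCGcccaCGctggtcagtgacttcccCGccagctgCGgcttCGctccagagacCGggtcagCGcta
Gm33636, chr15:97830436-97830685, plus strand: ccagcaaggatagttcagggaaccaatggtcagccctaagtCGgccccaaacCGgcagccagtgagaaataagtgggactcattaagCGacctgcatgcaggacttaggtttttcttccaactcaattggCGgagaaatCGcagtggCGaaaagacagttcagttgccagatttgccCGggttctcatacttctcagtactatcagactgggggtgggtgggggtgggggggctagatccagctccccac
Ltb, chr17:35194257-35194506, plus strand: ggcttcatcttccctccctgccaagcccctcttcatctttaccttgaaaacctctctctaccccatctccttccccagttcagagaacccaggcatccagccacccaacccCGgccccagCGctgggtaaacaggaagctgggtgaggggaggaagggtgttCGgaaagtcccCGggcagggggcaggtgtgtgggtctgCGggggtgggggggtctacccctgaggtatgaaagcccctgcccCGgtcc
Pelo, chr13:115090159-115090408, minus strand: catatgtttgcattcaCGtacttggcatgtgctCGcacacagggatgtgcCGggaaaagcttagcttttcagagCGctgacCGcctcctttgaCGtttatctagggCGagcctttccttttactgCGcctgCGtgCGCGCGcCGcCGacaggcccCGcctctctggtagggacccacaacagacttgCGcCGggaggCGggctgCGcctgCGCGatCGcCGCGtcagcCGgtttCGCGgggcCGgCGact
Phospho1, chr11:95824250-95824499, plus strand: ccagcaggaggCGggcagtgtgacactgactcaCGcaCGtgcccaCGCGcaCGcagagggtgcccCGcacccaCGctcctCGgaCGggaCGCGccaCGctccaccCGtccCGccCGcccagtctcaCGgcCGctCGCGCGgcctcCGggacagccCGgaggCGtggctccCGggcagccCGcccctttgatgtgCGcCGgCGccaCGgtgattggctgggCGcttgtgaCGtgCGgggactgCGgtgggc
B3galt4, chr17:33951489-33951738, minus strand: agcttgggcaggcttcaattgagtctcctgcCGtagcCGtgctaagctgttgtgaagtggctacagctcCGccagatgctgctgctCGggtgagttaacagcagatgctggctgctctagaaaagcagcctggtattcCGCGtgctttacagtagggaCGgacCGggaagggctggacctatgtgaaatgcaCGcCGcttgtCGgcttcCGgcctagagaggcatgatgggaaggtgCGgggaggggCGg
The printed member windows held fewer CGs than the printed dense windows, though only narrowly for Gm11772 against B3galt4. Pooled over the libraries of a group, the window of Pkn3, a protein kinase, was methylated at 32.2% in DMSO, 9.19% at the low dose, 18.7% at the middle dose and 32.4% at the high dose. The window of Ltb, the gene of the lymphocyte cytokine lymphotoxin beta, stood at 28.4%, 9.82%, 24.1% and 36.1% in the same order. The window of Pelo, a ribosome rescue factor, stood at 0.560%, 0.551%, 0.358% and 0.349%. The 10 start windows in member tiles held a median of 6 CGs (4 to 12), with a ratio of observed to expected CG of 0.373. The 150 windows in the dense tiles beside members held a median of 24 CGs (6 to 47), at a ratio of 0.908. Over all 32851 windows the median was 6 CGs and the ratio 0.374. Of the dense windows 98.7% held 10 or more CGs, of the member windows 10.0%, and of all windows 37.8%. These differences follow from the CpG numbers in the rule.

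Partly methylated tiles were the exception beside dense tiles. Of the 2078 tiles with fewer than 20 CpGs beside a dense unmethylated tile, 84.6% were under 20% in DMSO, 10.4% were the members and 4.96% were over 80%. Of the other 41726 such sparse tiles, 14.6% were under 20%, 34.7% partly methylated and 50.6% over 80%. The members held 2 to 19 CpGs (median 10), and their least-read library gave a median of 22 reads. All 19 autosomes held members, from 4 on chromosome 3 to 27 on chromosome 11. A RefSeq gene overlapped 175 of the 217. For the 210 members outside chromosome 18, whose gene starts were not used here, the dense run beside 154 held a gene start, 12 tiles held a start themselves, and 50 had neither. The nearest start lay a median of 1183.5 bp from the tile's centre, with 83 tiles upstream and 127 downstream of it. A single dense tile flanked 186 members, a run of 2 flanked 27 and a longer run 4.

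Methylation of the members was lowest at the lowest dose and stood near the control at the highest. The mean over the 217 tiles was 39.7% and 41.9% in the DMSO libraries, 10.7% and 9.98% at the low dose, 27.7%, 28.3% and 27.5% at the middle dose, and 37.3% and 36.1% at the high dose. No library of one group reached the range of another. Group means were 40.8% ± 1.55 (SD, n = 2) in DMSO, 10.3% ± 0.511 (n = 2) at the low dose, 27.9% ± 0.418 (n = 3) at the middle dose and 36.7% ± 0.822 (n = 2) at the high dose. The members were chosen by their pooled DMSO levels, those of their neighbours and CpG numbers, so tests were made between the doses. The permutation tests of these means use no DMSO library. The tile tests between doses, given below, take their spread from all 9 libraries, DMSO included. An exact permutation test of the spread between the 3 doses over the 210 assignments of the 7 treated libraries gave p = 0.00952, the smallest it can give, and 0.0286 after Benjamini-Hochberg adjustment over 6 such tests. Levels rose by 17.5 percentage points from 0.2 to 2 µM and by 8.82 from 2 to 10 µM. Exact two-sided permutation p-values for these steps were 0.1 each, and 0.333 for the 26.3 points between 0.2 and 10 µM, all of them the smallest these group sizes allow.

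**Figure D1:**
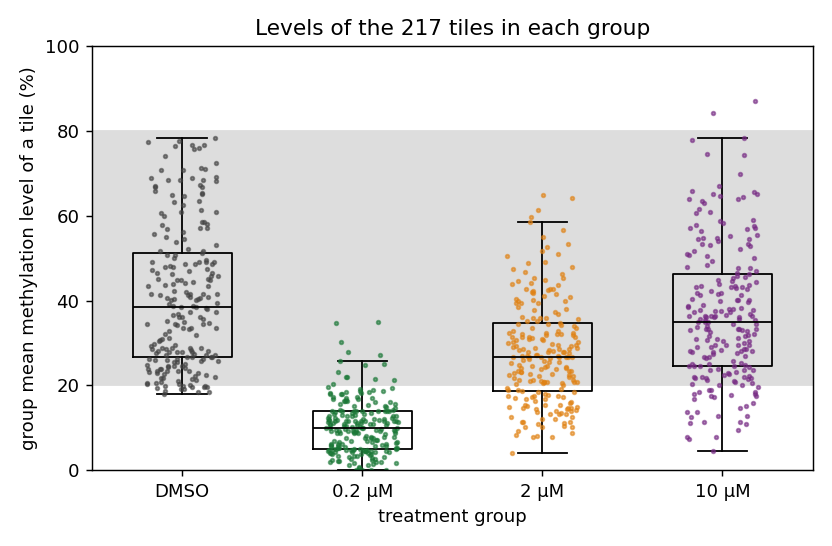
Methylation level (%) of each of the 217 tiles as the mean of its group's libraries, for DMSO and 3 doses of 5-aza-dC; boxes give quartiles, whiskers reach the farthest tile within 1.5 box lengths, and the grey band marks 20% to 80%. At 0.2 µM most tiles lie under the band, with a median of 10.0%, against 26.7% at the middle dose and 35.0% at the high dose.

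The tiles also differed among themselves within a dose. At 0.2 µM they ran from 0 to 35.0% and 51 of the 217 stood under 5%, against none in DMSO and 1 each at the middle and high doses. Tiles over 50% numbered 57 in DMSO, 0 at the low dose, 12 at the middle dose and 46 at the high dose. The order 0.2 below 2 below 10 µM in group means held in 180 of the 217, against 62.3% of all tiles tested. In 53 of them the libraries of the 3 doses did not overlap, against 19.0% of all tiles. Among partly methylated sparse tiles away from dense tiles the shares were 78.2% in that order and 23.1% without overlap, against 82.9% and 24.4% of members. Members with 2 to 7, 8 to 12 and 13 to 19 CpGs stood at 10.1%, 9.71% and 11.2% at the low dose, and at 24.9%, 29.3% and 29.7% at the middle dose. The 83 tiles upstream of their nearest start stood at 9.50%, 27.2% and 36.2% over the doses and the 127 downstream at 10.8%, 27.9% and 36.5%. The difference between the upstream and downstream tiles was not shown to vary with dose (exact permutation p = 0.790).

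Single tiles were tested with a logistic model of methylated against all reads on all 66788 tiles, with a moderated F test and Benjamini-Hochberg adjustment, called at an adjusted p under 0.05. From 0.2 to 2 µM, 51 members rose and 0 fell, 133 and 0 at an unadjusted p under 0.05. Over all tiles 10.7% were called higher and 0.523% lower. From 2 to 10 µM, 3 members rose and 0 fell, 29 and 1 unadjusted, against 8.48% of all tiles higher and 0.0210% lower. Between 0.2 and 10 µM, 137 rose and 0 fell, 164 and 0 unadjusted, against 41.4% higher and 0.0943% lower over all tiles. The share of members called was thus above the background for the first and the last comparison and below it for the step from 2 to 10 µM. The first 2 counts depend on how the spread was moderated. With limma's prior for the spread estimated over all tiles, as the test had first been specified, the counts were 0, 0 and 78, with 104, 21 and 145 members higher at an unadjusted p under 0.05. Over all tiles that version called 0%, 0% and 25.4% higher, with 13388, 12281 and 28414 of the 66788 higher at an unadjusted p under 0.05. That version recovered 0 of the changed tiles in simulated data and was replaced after its counts on these data had also been seen. At most 400 of 66788 tiles were changed per simulated comparison. On these data it called 38233 tiles lower at 0.2 µM against DMSO, so the simulation does not show which version is better here. Leaving out 1 of the 0.2 µM libraries, whichever it was, also took the count from 0.2 to 2 µM to 0.

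Libraries of the groups did not overlap in 169 members from 0.2 to 2 µM (all higher at the middle dose), against 41.4% of all tiles above and 4.24% below. From 2 to 10 µM, 69 lay above and 2 below without overlap, against 38.9% and 2.59%. Between 0.2 and 10 µM, 200 lay above and 0 below, against 66.8% and 3.12%. The 2 tiles below at the high dose, singled out after their values were seen, lay at Apeh, an acylpeptide hydrolase gene, and Slc39a7, a zinc transporter gene. Apeh went from 42.7% to 20.5% and Slc39a7 from 31.3% to 7.33%. Neither passed the test.

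The 6 members with the largest called rise from 0.2 to 2 µM gained 39.6 to 52.6 points, all with groups that did not overlap. The tile near Cops3, a subunit gene of the COP9 signalosome (mm10 chr11:59840001-59841000), stood at 47.2% and 40% in DMSO, 21.6% and 6.35% at the low dose, 66.7%, 60.4% and 43.1% at the middle dose, and 77.3% and 40.5% at the high dose. Its 0.2 µM libraries lay below all others, and the other groups overlapped (adjusted p = 0.00931 for 2 against 0.2 µM, limma-moderated F test). Its 500 bp next to the dense tile stood at 0% in every group. The 500 bp away from it stood at 94.6% in DMSO, then 18.5%, 72.5% and 70.6% over the doses. So in that part the middle and high doses lay below DMSO. The tile level sums reads over both parts, and how their placement affected it was not tested. The tile in Borcs6, a gene of lysosome positioning (chr11:69061001-69062000), stood at 57.9% and 84.6%, then 19.0% and 17.8%, then 82.1%, 41.9% and 70.3%, then 69.0% and 86.7%. Again only the 0.2 µM libraries stood apart, although 13 reads was its smallest number in a library (adjusted p = 0.0105). The tile in Fam71e1 (chr7:44497001-44498000) gave 51.2% and 46.2%, then 17.9% and 20%, then 56.8%, 55% and 63.8%, then 60.8% and 78.9%. The other 3 lay near Gm35771, near Gm32316 and on chromosome 18. Under the prior from all tiles the adjusted p of these 6 was 0.142 to 0.147, and under limma on tile levels 0.0504 to 0.0888.

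The 3 members that rose from 2 to 10 µM lay near Rpl35, a ribosomal protein gene, in Ypel2 and near Myoz2, a sarcomere gene. The Rpl35 tile (chr2:39006001-39007000) stood at 41.5% and 41.7% in DMSO, 10.9% and 12.2% at the low dose, 23.6%, 27.8% and 15.4% at the middle dose, and 42.9% and 55.9% at the high dose. Its treated groups were fully separated and its 10 µM libraries lay above DMSO (adjusted p = 0.0222 for 10 against 2 µM, limma-moderated F test). In Ypel2 (chr11:86992001-86993000) the 2 µM libraries lay at 29.4%, 28.3% and 27.7% and the 10 µM libraries at 63.6% and 66.7% (adjusted p = 0.0362). With the prior from all tiles these 3 had adjusted p-values of 0.182 to 0.192, and with the replicate block 0.0521 to 0.0658. With limma on tile levels they were 0.0717 to 0.103. Near Myoz2 the rise was 28.7 points without 10 µM replicate 1 and 61.2 without 10 µM replicate 2. In the same order it was 33.6 and 20.6 points near Rpl35, and 38.2 and 35.2 in Ypel2.

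The largest difference between 10 and 0.2 µM with more than 30 reads in every library lay in Itpkc, the gene of an inositol trisphosphate kinase (chr7:27227001-27228000). It stood at 74.0% and 80.6% in DMSO, 5.98% and 12.4% at the low dose, 45.7%, 39.8% and 56.8% at the middle dose, and 68.4% and 63.4% at the high dose. All 4 groups were separate, and the 10 µM libraries were 56.7 points above 0.2 µM (adjusted p = 2.51e-05, limma-moderated F test). The 6 tiles named for this comparison gained 56.7 to 71.3 points and were also called with the prior from all tiles (adjusted p 0.0194 to 0.0276). Besides Itpkc they lay at Gm32316, Tmem120b, Borcs6, Myoz2 and on chromosome 18.

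The 12 members with the most reads also stood lowest at the low dose. The tile beside the dense tile of Pelo, inside Itga1, an integrin gene (chr13:115089001-115090000), stood at 23.6% and 28.4% in DMSO, 3.38% and 1.97% at the low dose, 18.3%, 12.5% and 13.3% at the middle dose, and 27.9% and 12.9% at the high dose. Its 10 µM libraries overlapped those at 2 µM and in DMSO (adjusted p = 0.0445 for 2 against 0.2 µM and 0.536 for 10 against 2 µM). In Phospho1, a phosphatase gene of bone mineralisation (chr11:95825001-95826000), the libraries stood at 37.3% and 38.5%, then 9.60% and 13.5%, then 21.4%, 21.9% and 24.6%, then 37.3% and 35.3%. Here 3 levels were separate and 10 µM overlapped DMSO (adjusted p = 0.167 for 2 against 0.2 µM, 0.183 for 10 against 2 µM and 0.00406 for 10 against 0.2 µM). In B3galt4, a glycosyltransferase gene (chr17:33950001-33951000), they stood at 52.6% and 63.6%, then 16.9% and 18.8%, then 43.2%, 60.2% and 48.3%, then 41.1% and 55.7%. Only the 0.2 µM libraries stood apart there. In Prkcb, which encodes a protein kinase C of B cell receptor signalling (chr7:122290001-122291000), they stood at 22.7% and 21.0%, then 4.11% and 5.50%, then 14.7%, 10.7% and 14.5%, then 13.1% and 22.0%. The adjusted p for 10 against 0.2 µM was 0.0401 in Prkcb and 0.00269 in B3galt4.

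**Figure D2:**
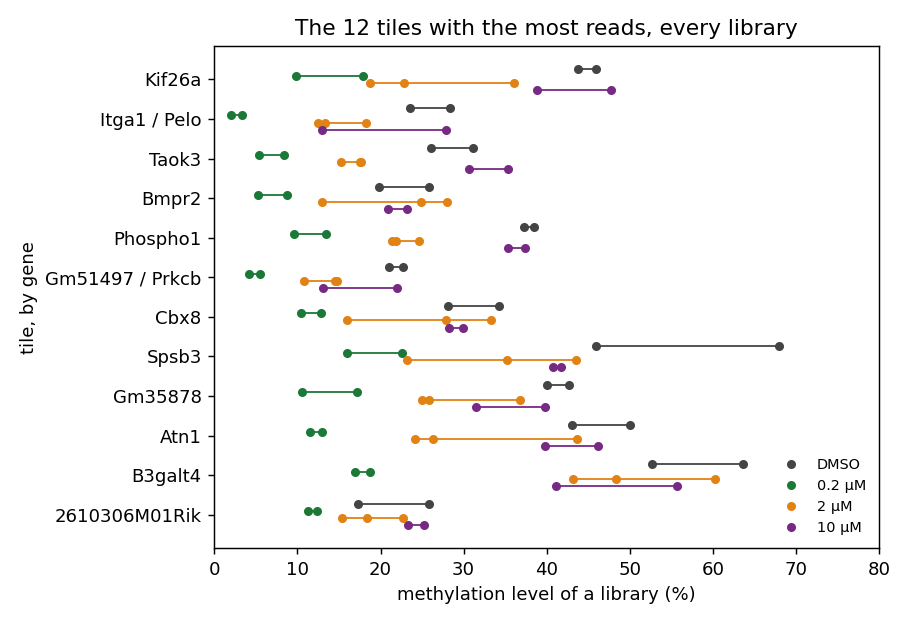
Methylation level (%) of every library in the 12 tiles with the most reads in their least-read library, 1 row per tile and 1 colour per group; a line joins the libraries of a group. The 0.2 µM libraries lie lowest in each row, as in Phospho1 at 9.60% and 13.5%.

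Against DMSO the values are a description, since the DMSO libraries chose the tiles. At 0.2 µM 181 members were called lower, at the middle dose 38 and at the high dose 1, where 63.4%, 49.4% and 14.0% of all tiles were called lower. In the same order 0 members were called higher each time, and 0 had an unadjusted p under 0.05 in that direction, where 0.0464%, 0.132% and 0.157% of all tiles were called higher. To separate choice from baseline, 1 DMSO library chose the tiles and the other served as baseline. With replicate 1 choosing (208 tiles) the dose means were 25.6%, 67.8% and 89.6% of the baseline at 0.2, 2 and 10 µM. With replicate 2 choosing (222 tiles) they were 26.4%, 69.5% and 92.0%. Called lower were then 112, 15 and 0 members, or 132, 17 and 0. The backgrounds were 52.9%, 32.2% and 0.982%, or 54.9%, 35.7% and 1.75%. Among members with 30 or more reads in every library, Itpkc fell furthest at the low dose, from 77.3% to 9.20%. Ctdsp1, a phosphatase gene acting on RNA polymerase II, stood at 78.2% in DMSO and at 23.3%, 39.5% and 54.1% over the doses. Kdelr3, an endoplasmic reticulum retention receptor gene, stood at 68.3%, then 13.9%, 37.8% and 51.7%. The smallest fall among them at 0.2 µM lay in 2610306M01Rik, whose libraries stood at 25.8% and 17.3% in DMSO and at 12.3% and 11.3% at the low dose. That is a small fall of the summed level only. Its 500 bp next to the dense tile stood at 1.34% in DMSO and 0.971% at the low dose. The 500 bp away from the dense tile stood at 97.0% and 39.3%. Among the tiles with the largest rise at 10 µM against DMSO, Creb5, a transcription factor gene, stood at 28.9% in DMSO and at 3.74%, 13.8% and 40.3%, and Ppp1r27 at 58.6%, then 22.0%, 49.0% and 74.2%. Neither was called higher than DMSO at the high dose (adjusted p = 0.582 and 0.312, limma-moderated F test).

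Of the member itself the rule used only the summed level, and the levels within it followed the distance from the dense tile. The low DMSO level of the dense tile was set by the rule. In DMSO, CpGs more than 200 bp inside the dense tile stood at 0.741% to 1.32% per 100 bp. The last 100 bp of the dense tile stood at 6.65% ± 0.580 (SD, n = 2), the first 100 bp of the member at 25.1% ± 1.80, and the bins from 800 to 1000 bp at 69.0% ± 6.94 and 68.3% ± 2.81. At 0.2 µM the same first and last 100 bp of the member stood at 7.32% ± 0.750 (n = 2) and 16.6% ± 2.21, at the middle dose at 18.8% ± 0.206 (n = 3) and 41.7% ± 7.88, and at the high dose at 24.1% ± 3.30 (n = 2) and 58.4% ± 5.04. The last bin lay above the first in each group. Bins far from the edge hold fewer CpGs, 98 in the last against 569 in the first, and come from different tiles.

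**Figure D3:**
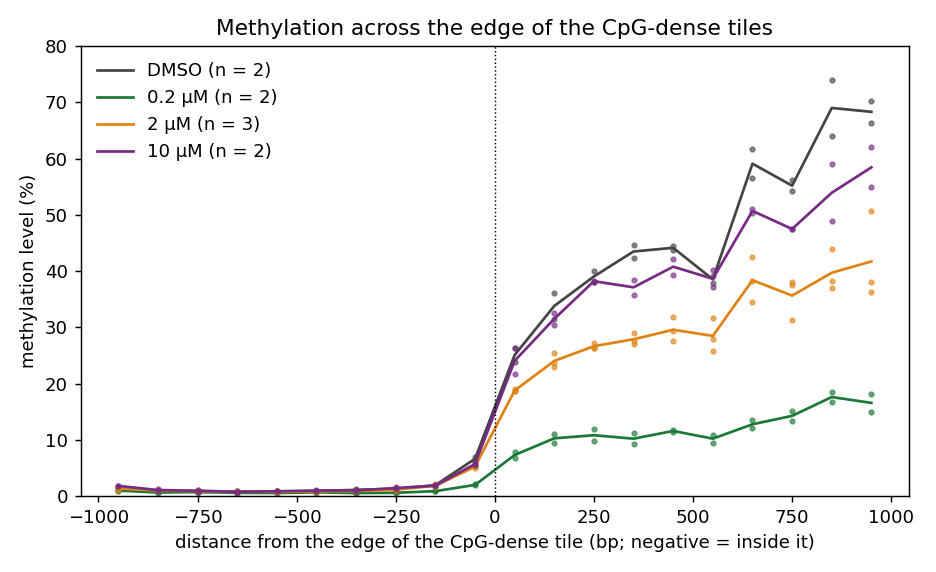
Methylation level (%) against distance from the edge of the dense tile in 100 bp bins (bp, negative inside the dense tile); lines are group means and points libraries. All groups lie near 0 inside the dense tile, where the rule set the DMSO level. They climb through the member, to 68.3% in DMSO and 16.6% at the low dose in the last bin.

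The near and far 500 bp of a tile could be compared in the 37 members with 5 or more reads in each 500 bp in every library. The near parts stood at 19.0% ± 1.71 (SD, n = 2) in DMSO, 4.72% ± 0.517 (n = 2) at the low dose, 14.4% ± 0.677 (n = 3) at the middle dose and 20.1% ± 1.86 (n = 2) at the high dose. The far parts stood at 72.5% ± 0.317, 15.8% ± 0.00309, 42.6% ± 1.07 and 56.7% ± 0.280. The far part was thus the higher one in every library, by 54.9 and 52.0 points in DMSO, 10.7 and 11.4 at the low dose, 27.9, 29.7 and 27.1 at the middle dose, and 35.1 and 38.1 at the high dose. Over the 3 doses this difference in points varied beyond the spread of libraries (exact permutation p = 0.00952, 0.0286 adjusted over 6 tests). Such a difference cannot exceed the far level, so the test does not separate a changed gradient from a changed level. As a share of DMSO, the near and far parts stood at 24.8% and 21.8% at the low dose. They stood at 75.8% and 58.8% at the middle dose, and at 106% and 78.2% at the high dose. The far part lay above the near in 33 of the 37 tiles in DMSO, 32 at the low dose, 33 at the middle dose and 30 at the high dose. In Spsb3, a gene of an ubiquitin ligase adaptor (chr17:24887001-24888000), the near part stood at 0.926% and the far part at 89.8% in DMSO, against 1.72% and 23.9% at the low dose. The tile near Gm35878 (chr11:119087001-119088000) ran the other way, at 50.7% near and 10.7% far in DMSO and at 16.2% and 3.98% at the low dose.

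**Figure D4:**
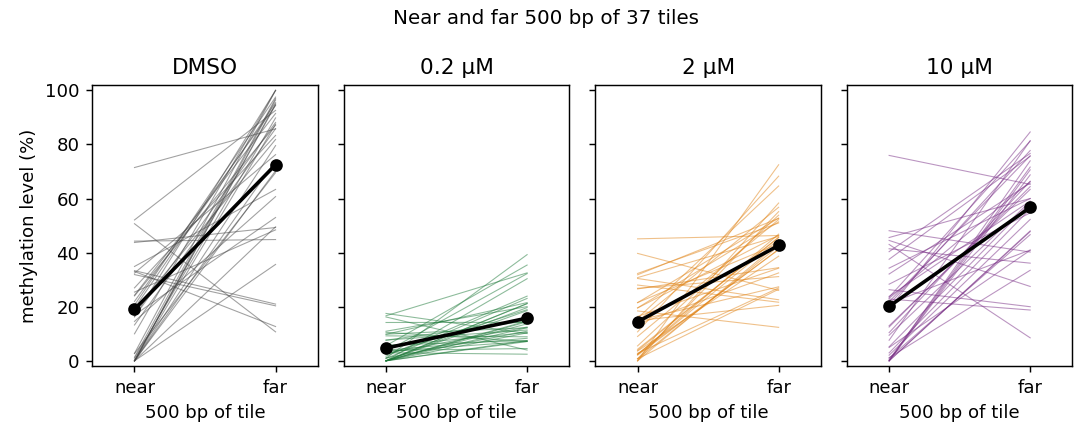
Methylation level (%) of the near and far 500 bp of 37 tiles, 1 panel per group; thin lines are tiles as group means and the thick line is their mean. The mean climbs from 19.0% to 72.5% in DMSO and from 4.72% to 15.8% at the low dose.

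Single CpGs gave the same picture of mixed levels. Of the members' 2179 CpGs, 647 in 185 tiles had 10 or more reads in each group's pooled libraries. In DMSO 211 of them stood under 20%, 351 at 20% to 80% and 85 over 80%. At 0.2 µM the numbers were 550, 97 and 0, at the middle dose 299, 348 and 0, and at the high dose 229, 402 and 16. Of 68 tiles with 4 or more such CpGs, 17 held both CpGs under 20% and CpGs over 80% in DMSO, and 6 held only CpGs at 20% to 80%. The 1 kb tile beyond the member, away from the dense tile, had enough reads for 19 of 216 members. Of these 12 stood under 20% in DMSO, 1 between and 6 over 80%.

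The 216 dense tiles beside members, chosen under 5% in pooled DMSO, stayed low on average in every group. As group means, 215 stood under 5% in DMSO and at the low dose, and 210 at the middle and high doses. The highest stood at 19.4% at the high dose. The mean over these tiles was 1.25% ± 0.0377 (SD, n = 2) in DMSO, 0.733% ± 0.0395 (n = 2) at the low dose, 1.24% ± 0.0501 (n = 3) at the middle dose and 1.40% ± 0.170 (n = 2) at the high dose. Over the doses the mean differed (exact permutation p = 0.0190, 0.0381 adjusted over 6 tests, and 0.05 without 10 µM replicate 2). All dense tiles stood at 0.764%, 0.556%, 0.739% and 0.791%.

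Partly methylated sparse tiles away from dense tiles (14494) served as comparison. They stood at 58.5% ± 0.802 (SD, n = 2) in DMSO, 21.8% ± 0.162 (n = 2) at the low dose, 36.6% ± 0.521 (n = 3) at the middle dose and 48.9% ± 0.0504 (n = 2) at the high dose. Members minus these tiles varied over the doses (exact permutation p = 0.0286, 0.0429 adjusted over 6 tests). The call was lost without 0.2 µM replicate 1 or without 10 µM replicate 2 (exact permutation p = 0.1 each). The 2 sets differ in DMSO level. On a ratio scale, added after the data were seen, the members stood furthest below at the low dose (exact permutation p = 0.0476, 0.0571 adjusted). Weighted to the members' DMSO levels, the comparison tiles stood at 41.3%, 15.4%, 27.8% and 36.8%. Members minus those were −5.11 points ± 0.612 (SD, n = 2) at the low dose, 0.0511 ± 0.600 (n = 3) at the middle dose and −0.115 ± 0.846 (n = 2) at the high dose. That difference between doses did not pass the exact permutation test (p = 0.0857). As a share of DMSO, the low dose stood at 25.3% in members and 37.2% in the unweighted comparison tiles. The 103 sparse tiles over 80% in DMSO beside dense tiles stood at 28.0%, so a low share was not particular to members. The 1758 such tiles under 20% stood at 42.3%, from a DMSO level of only 2.18%. Of the comparison tiles 11.6%, 3.54% and 50.5% were called higher from 0.2 to 2, 2 to 10 and 0.2 to 10 µM, against 23.5%, 1.38% and 63.1% of members. Members were read more deeply, with medians of 29 to 58 reads per library against 21 to 48, and the part of depth in these shares was not tested.

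**Figure D5:**
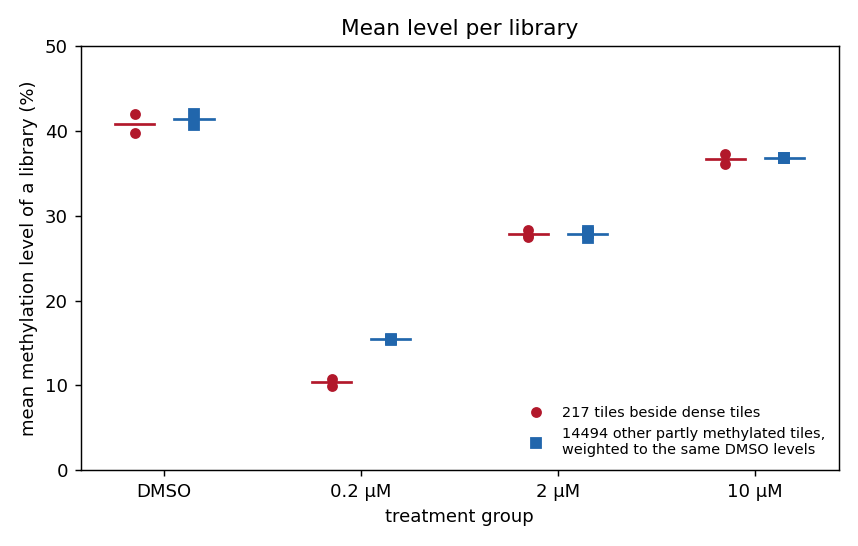
Mean methylation level (%) of each library over the 217 members (circles) and over the 14494 comparison tiles weighted to the same DMSO levels (squares), with group means as lines. The sets lie apart at the low dose, 10.3% against 15.4%, and together at the middle dose, 27.9% against 27.8%.

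Dense tiles with a member on both sides occurred at Adamtsl5, a gene of an extracellular matrix protein, and at Pbx2, a homeobox transcription factor gene. Downstream of the Adamtsl5 start (chr10:80347001-80348000) the groups stood at 28.0%, 6.15%, 30.3% and 37.8%, and upstream (chr10:80349001-80350000) at 19.9%, 4.90%, 15.0% and 28.1%. Upstream of Pbx2, in Gpsm3 (chr17:34591001-34592000), they stood at 19.6%, 4.52%, 13.5% and 16.8%, and downstream (chr17:34593001-34594000) at 26.8%, 11.5%, 39.9% and 22.5%. The last tile, with as few as 14 reads in a library, did not follow the dose order.

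Among listed genes, none of 24 B lineage transcription factor genes, 26 genes of the B cell receptor and its signalling, 36 tumour suppressors and cell cycle inhibitors, 36 imprinted or 25 germline genes held or lay within 5 kb of a member. By the same rule 263 of 49939 RefSeq genes (0.527%) had a member. Of 26 regulators of other blood lineages 1 did, Cebpb. Of 75 homeobox and other developmental regulators 1 did, Lhx2, and of 34 methylation and chromatin enzymes 1, Hdac7. The lists are not complete: Prkcb and Pbx2, described above with members, are on none of them. The Hdac7 tile (chr15:97830001-97831000) stood at 36.6% and 42.0% in DMSO, 10.3% and 7.69% at the low dose, 30.2%, 37.5% and 26.6% at the middle dose, and 28.6% and 33.3% at the high dose. It rose from 0.2 to 2 µM (adjusted p = 0.0495, limma-moderated F test). Between 0.2 and 10 µM all 3 tiles rose, as did 63.1% of members and 41.4% of all tiles.

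At the rule's lower limit a tile near Plekha3 stood at a pooled 20%. At the upper limit a tile in Acvr1b stood at 78.1% and one in Shoc2, outside, at 81.4%. Beside dense tiles of exactly 40 CpGs, 9 members averaged 45.9% in DMSO and 15.6% at the low dose, and beside tiles of 39 CpGs, 5 tiles averaged 66.1% and 15.7%.

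The libraries held 8590883 to 16495535 reads at CpGs, fewest in 10 µM replicate 2 and in DMSO replicate 2. RNA was not measured, so the labelled cell type could be checked only by methylation at starts of marker genes, and few were covered. Of 11 B lineage genes, Ebf1 and Igll1 were covered and stood at 0.387% and 0% in DMSO. Of 9 genes of other cell types, Epcam was covered and stood at 88.2%.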

How the data were processed

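RRBS was done on 9 libraries (Ovation RRBS kit, 50 ng DNA, per the labels' protocols) and aligned to mm10, per the submitters' processing notes; which aligner and caller were used is not given in the sources used here. The deposited files list each CpG with its methylated and total read counts, and a score that equals the level in per mille, rounded down, per the file contents. The counts are of reads, which may overstate the number of molecules. Reads were summed in 1 kb tiles. Per tile, a logistic model gave 1 level per group over all 9 libraries, on read numbers scaled to their effective size in 5 coverage classes. The spread was moderated with limma 3.58.1 (R 4.3.3), with a floor of 1, and tested with an F test, Benjamini-Hochberg adjusted over 66788 tiles. The plan had specified limma's squeezeVar over all tiles. That version had a prior of 2.56 degrees of freedom and recovered 0 of 400 changed tiles in data simulated for 2 against 0.2 µM. Its counts on the deposited data had been seen too when the prior was re-estimated on tiles pooled at 10% to 90% (21.1 degrees of freedom), which recovered 144 of the 400 with 5 unchanged tiles called. The simulation changed far fewer tiles than either version called lower at 0.2 µM against DMSO, so it does not settle the choice. Both versions' counts are given. Means over tiles were compared by exact permutation of libraries. The members and lists were chosen with earlier results of these data known. Named tiles were the 12 most deeply read, up to 6 per direction with the largest called difference and no overlap for each pair of doses, the largest and smallest changes against DMSO with 30 or more reads, tiles sharing a dense tile, tiles at the rule's limits, and tiles at listed genes. The log2 ratio to comparison tiles, the CpG number, DMSO level and upstream and downstream splits, the start windows and the marker starts were added after the files were seen. Of the CpG positions in RefSeq start windows, 256267 of 256267 lay on a CG. Alternatives were other read minimums, another grid and DMSO range, unscaled reads, limma on levels, a replicate block and leaving out each library. Exons, introns and annotated CpG islands were not used here. The tile just outside the rule's lower limit is not reported here.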

Additional observations from a re-analysis of the deposited data

How the results depend on the processing

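Directions of the dose steps in mean level held under all alternatives run. With limma's prior estimated over all tiles, as first specified, members called were 0 from 0.2 to 2 µM, 0 from 2 to 10 µM and 78 from 0.2 to 10 µM, and 21 and 0 for 2 and 10 µM against DMSO. With limma on tile levels they were 0 (130 at an unadjusted p under 0.05), 0 (42 unadjusted) and, for 10 µM against DMSO, 3, where 2, 0 and 9380 of all tiles were called. The count from 0.2 to 2 µM (51) became 23 at a minimum of 20 reads (124 members), 77 at 5 reads (309 members), 88 with reads not scaled, and 0 to 62 leaving out 1 library, with 31 without 1 DMSO library (either one) and 0 without 1 of the 0.2 µM libraries (either one). From 2 to 10 µM (3) it became 9 on a grid shifted by 500 bp, 1 at a DMSO level of 30% to 70%, 5 unscaled, and 1 to 3 leaving out 1 library. From 0.2 to 10 µM (137) it became 80 at 20 reads, 88 at 30% to 70%, and 74 to 142 leaving out 1 library. For 0.2 µM against DMSO (181) it became 107 and 116, for 2 µM 24 at 20 reads and 11 to 40 leaving out 1 library, and for 10 µM 3 on the shifted grid and 0 to 1.

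Members minus comparison tiles, 10 minus 0.2 µM, was −0.740 points. Its sign turned on the shifted grid (1.86), at 30% to 70% (3.52), weighted to the members' DMSO levels (4.99) and as a log2 ratio (0.66); the cause was not tested. Leaving out 1 library gave −1.29 to −0.194 points for this difference, 25.8 to 26.9 for the mean level, −27.0 to −24.0 for near minus far and 0.545 to 0.786 for the adjacent dense tile. Without 0.2 µM replicate 1 (−0.264) or 10 µM replicate 2 (−0.194) the exact permutation p of the difference from comparison tiles was 0.1, and that of the dense tile was 0.05 without 10 µM replicate 2. Without any one 2 µM library the exact permutation p over doses was 0.0667 to 0.133, where 0.0667 is the smallest possible. With the replicate block, which allows no p under 0.167, it was 0.167 for the mean level (26.3 points), the difference from comparison tiles (−0.740), near minus far (−25.5) and the dense tile (0.665). The block gave 42, 2 and 141 called members between the doses (5137, 4580 and 28172 of all tiles), and the 3 tiles named from 2 to 10 µM were not called. Its steps in mean level (17.7 and 8.65 points) equal those without 2 µM replicate 3, which has no same-numbered library in other groups. Without that library and without the block the counts were 43, 3 and 140. Same-numbered libraries showed no shared deviation (r −0.0124 to 0.00591 over tiles). Read sampling could hide one, so whether the numbers pair the libraries was not settled. Of the values of named tiles under alternatives, 166 stayed called, 47 did not and none turned. Tiles with 10 to 30 reads in a library have wide errors.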
